A study of Mus musculus with 15 samples.

Results

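The regions described are megabase neighbourhoods of the mouse genome, each holding a group of peaks of acetylated histone H3 whose change after ultraviolet light can be read together. The autosomes of build mm9 were divided into fixed bins of 1 Mb from their first base. A bin was a member when the midpoints of at least 10 deposited peaks of H3K27ac, histone H3 acetylated at lysine 27, lay in it. Of 2086 autosomal bins with at least 1 peak, 1693 were members, and they held 87398 of the 89021 autosomal peaks (98.2%). The number of peaks in a member bin was 10 to 180, with a median of 46. The other 393 bins held 1 to 9 peaks each.

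NIH3T3, an established line of mouse embryonic fibroblasts, was the only cell material. Irradiated cells were exposed to UV-C (254 nm, 80 J/m2), were given fresh medium with DMSO and were collected 6 h later. Untreated cells received no irradiation, and the labels do not say whether their medium was changed or held DMSO. H3K27ac was measured by ChIP-seq and open chromatin by FAIRE-seq, which recovers DNA that is poorly crosslinked to protein, with 2 irradiated and 2 untreated samples for each assay and 1 input DNA sample from untreated cells. Transcripts were measured by RNA-seq in 3 irradiated and 3 untreated libraries. The chromatin tables hold 1 read number per feature and condition, with its 2 samples merged, and the irradiated pool is in columns marked DMSO. Chromatin values therefore have no spread between samples and no test, and their intervals cover counting error only or the spread over peaks or bins.

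H3K27ac is laid down by the acetyltransferases p300 and CBP at active promoters and enhancers and is removed by histone deacetylases. Chromosomes are folded into domains of about a megabase, within which enhancers and promoters meet more often than across domain borders. UV-C light forms lesions between neighbouring pyrimidines, which stall RNA polymerase II and turn on stress kinases and p53, and in fibroblasts the AP-1 genes and p53 targets are well known to respond. The bins have fixed edges and do not follow domain borders.

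The change of a peak is log2 of irradiated reads plus 16 over untreated reads plus 16, so a positive value means more reads in the irradiated pool. The 16 added reads shrink the change of peaks with few reads. H3K27ac peaks held 17852404 reads in the irradiated pool and 15525272 in the untreated pool. The input scale that the authors used in their promoter tables differed by 0.01 on the log2 scale between these pools. For FAIRE it differed by -0.32, close to the median change of -0.35 over all autosomal FAIRE peaks, so FAIRE changes are given relative to that median. FAIRE peaks held 1667365 reads in the irradiated pool and 2691671 in the untreated pool. The FAIRE read numbers given below are not scaled for this difference. In the RNA libraries the summed level of the 7 fibroblast markers was 19045 to 28085 CPM (counts scaled to the size of the library) in irradiated cells and 16203 to 21318 CPM in untreated cells. The 4 epithelial markers summed to 3.87 to 8.16 CPM in irradiated cells and to 5.16 to 8.67 CPM in untreated cells. The 2 endothelial markers summed to 0.993 to 3.94 CPM in irradiated cells and to 2.26 to 3.77 CPM in untreated cells. The 2 leukocyte markers summed to 9.49 to 13.0 CPM in irradiated cells and to 5.53 to 7.04 CPM in untreated cells. No marker was at 0 in all libraries, and the part of other cells in any result was not tested. In bulk samples such as these, fewer cells of a type and less acetylation or RNA per cell cannot be told apart.

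Promoters from RefSeq (build GRCm38.p6) are shown for 3 genes to which the results below return: a pair of histone genes from a run of 10 neighbouring genes whose promoters all had less H3K27ac after irradiation, and Btg2, an antiproliferative p53 target, whose promoter was higher while 9 of its 10 flanking promoters were not. Each sequence runs from 250 bases before to 50 bases after the start of the gene. Capitals mark the TATA box letters TATAAA, the CCAAT box letters CCAAT and the cAMP response element letters TGACGTCA, searched on both strands, and no match overlapped another. Of 31396 autosomal promoters of this length, 13.6% held TATAAA, 37.3% held CCAAT and 1.83% held TGACGTCA. A match is only a match of letters.
Hist1h3g (H3c8), chr13:23535168-23535467, plus strand: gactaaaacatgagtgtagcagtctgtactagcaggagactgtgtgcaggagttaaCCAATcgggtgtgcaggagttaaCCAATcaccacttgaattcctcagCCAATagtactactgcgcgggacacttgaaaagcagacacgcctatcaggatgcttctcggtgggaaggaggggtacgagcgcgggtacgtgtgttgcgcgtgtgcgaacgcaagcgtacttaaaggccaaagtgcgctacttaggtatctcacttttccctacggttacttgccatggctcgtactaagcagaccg
Hist1h1d (H1f3), chr13:23554782-23555081, plus strand: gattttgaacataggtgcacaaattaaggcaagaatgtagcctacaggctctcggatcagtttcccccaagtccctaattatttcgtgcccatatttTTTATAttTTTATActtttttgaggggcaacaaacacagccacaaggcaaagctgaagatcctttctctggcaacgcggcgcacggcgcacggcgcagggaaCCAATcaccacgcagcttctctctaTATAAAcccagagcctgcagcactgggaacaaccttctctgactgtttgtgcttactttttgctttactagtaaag
Btg2, chr1:134079106-134079405, minus strand: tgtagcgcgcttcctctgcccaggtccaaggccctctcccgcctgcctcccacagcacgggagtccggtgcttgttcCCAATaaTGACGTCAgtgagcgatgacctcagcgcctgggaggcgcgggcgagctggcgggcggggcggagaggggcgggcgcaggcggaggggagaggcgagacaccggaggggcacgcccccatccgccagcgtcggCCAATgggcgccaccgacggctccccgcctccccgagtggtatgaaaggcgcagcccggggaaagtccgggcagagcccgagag
The Hist1h3g promoter held 3 CCAAT matches, and the Hist1h1d promoter held 1 CCAAT match and 3 TATAAA matches. The Btg2 promoter held 1 TGACGTCA match a few bases after the first of its 2 CCAAT matches.

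The first question was whether whole neighbourhoods gained or lost acetylation. Most did neither. The median over the 1693 bin medians was 0.06 (95% binomial interval over bins 0.04 to 0.08), and the central 90% of bin medians lay between -0.52 and 0.58. Bin medians ranged from -1.28 to 1.71, with an SD of 0.34. A median of at least 0.5 was found in 121 bins and a median of at most -0.5 in 98 bins. A median of at least 1 was found in 14 bins, and 10 bins had a median of at most -1.

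Peaks within a bin were far more different from each other than bins were. The SD of the change over the peaks of a bin had a median of 0.76 over bins (95% binomial interval 0.75 to 0.76), against the 0.34 between bin medians. A gain or a loss of a peak means a change of at least 1 in size. Among all autosomal peaks 12.2% were gains and 9.99% were losses. In 1231 bins (72.7%), at least 1 gain and at least 1 loss lay in the same megabase. A bin with many peaks will often hold both at these shares, so this count cannot show whether neighbours differ. Among the 121 bins with a median of at least 0.5, 34 held a loss, and among the 98 bins with a median of at most -0.5, 68 held a gain. These counts depend on peak number too. The quintile of bins with the lowest medians had a median of 50 peaks per bin, and the quintile with the highest had 31. All peaks were higher in the irradiated pool in 8 bins, and all were lower in 3 bins.

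**Figure D1:**
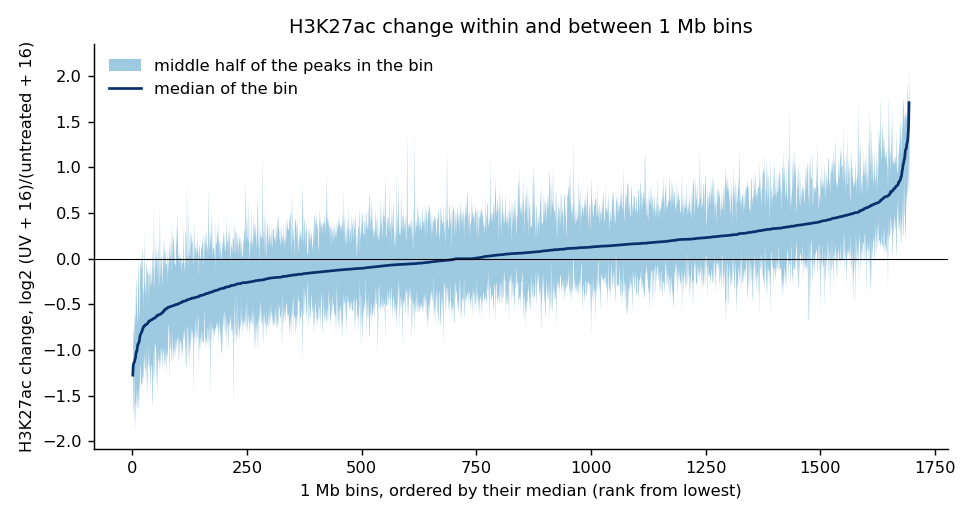
The 1693 bins are ordered along the horizontal axis by their median H3K27ac change. The dark line is the bin median on the log2 scale and the band holds the middle 50% of the peaks of each bin. Bin medians run from -1.28 to 1.71, and the band reaches both sides of 0 in most bins.

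When the variance of the change was divided between and within bins, 13.0% lay between bins (intraclass correlation 0.130, SE over bins 0.00443). The SD between bins was 0.30 and the SD within bins was 0.79. Counting error accounted for 6.34% of the variance within bins, so most of the scatter among neighbouring peaks was larger than the error of counting reads. FAIRE peaks shared less with their bin: 4.94% of their variance lay between 1673 bins with at least 5 FAIRE peaks, and counting gave 31.7% of the variance within those bins. The share between bins was 10.5% in the quintile of H3K27ac peaks with the fewest reads, 16.7% in quintile 4 and 16.3% in the quintile with the most reads.

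A peak was taken to be on the side of its bin when its change and the median of the other peaks of the bin lay on the same side of the median of all autosomal peaks. This held for 52693 of 87384 peaks (60.3%, 95% binomial interval 60.0 to 60.6% over peaks). The interval takes peaks as independent, which close neighbours are not, so it is too narrow. With peaks at most 10 kb from the next merged into 1, the share was 56.8%. The outcome depended on how a bin was divided. Peaks taken alternately along the bin gave 2 medians that correlated at Pearson r = 0.79 (Spearman rho = 0.75, 1693 bins). The left and the right part of a bin, each with at least 5 peaks, gave medians that correlated at r = 0.16 (rho = 0.12, 1209 bins). These correlations are descriptions over bins that share the same pools. Alternate peaks are close neighbours, while the left and right parts are mostly farther apart.

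Changes were less alike the farther apart the peaks lay. H3K27ac peaks with midpoints less than 2 kb apart had changes that correlated at r = 0.73 over 48721 pairs, and 76.3% of these pairs had the same sign relative to the median of all peaks. At 2 to 5 kb the correlation was 0.57, at 5 to 10 kb 0.42, at 10 to 20 kb 0.33 and at 20 to 50 kb 0.26. It was 0.20 at 50 to 100 kb, 0.13 at 100 to 200 kb and 0.053 at 200 to 500 kb. From 500 to 1000 kb it was 0.017, with 50.5% of 2279959 pairs of the same sign, and from 1000 to 2000 kb it was 0.0056. All pairs come from the same 2 pools, and peaks under 2 kb apart can belong to the same acetylated stretch.

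**Figure D2:**
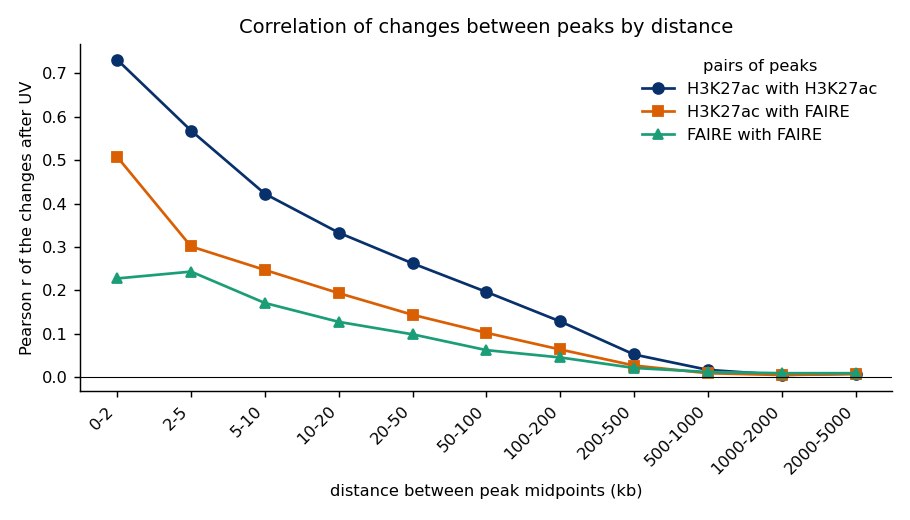
Pearson correlation of the changes after UV for pairs of peaks, by the distance between their midpoints in kb, for pairs of H3K27ac peaks, H3K27ac with FAIRE peaks and pairs of FAIRE peaks. The first class starts at 0.73, 0.51 and 0.23, and all 3 lines lie under 0.06 from 200 to 500 kb onwards.

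The same decline appeared when the size of the bin was varied, among bins with at least 2 peaks. In bins of 5 kb 70.9% of the H3K27ac variance lay between bins, in bins of 10 kb 63.7%, in bins of 25 kb 49.5% and in bins of 100 kb 32.8%. In bins of 500 kb it was 18.2%, in bins of 1000 kb 13.2% and in bins of 5000 kb 5.68%. The FAIRE share was 23.3% in bins of 5 kb and 5.61% in bins of 1000 kb.

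Beyond its own edges a bin said little about the next. Adjoining member bins had medians that correlated at r = 0.12 (rho = 0.12, 1365 pairs). For bins 2 apart r was 0.051 and for bins 10 apart 0.010. Of the 121 bins with a median of at least 0.5, 86 were followed by a member bin, and 12 of these (14.0%) had a median of at least 0.5 too, against 7.15% of all bins. Of the 98 bins with a median of at most -0.5, 82 were followed by a member bin, of which 4 (4.88%) were also at or below -0.5, against 5.79% of all bins. The longest series of adjoining bins on 1 side was 3 bins for either direction.

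The 8 bins with the highest medians held 10 to 58 peaks each. These bins and the 8 lowest were chosen by the changes of their own peaks. The values of their peaks, parts and read ratios are therefore descriptions, and the intervals do not allow for the choice. The highest was chr3:70000001-71000000, in which all 10 peaks were higher after irradiation, with a median of 1.71 and a range of 0.79 to 2.49. Its peaks held 2157 reads in the irradiated pool and 518 in the untreated pool, a log2 ratio of reads of 2.06 (exact 95% interval 1.92 to 2.20). They spanned 27.1 kb, and 8 of them lay in 1 cluster, which means midpoints at most 10 kb apart from the next. The peak with the most reads, chr3:70610714-70611193, had 491 irradiated and 93 untreated reads, a change of 2.22. The largest change among peaks of at least 100 reads was 2.49, at chr3:70610225-70610568, with 264 irradiated and 34 untreated reads. The preceding bin, with 41 peaks, had a median of 0.12.

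The bin chr3:61000001-62000000 had a median of 1.45 over 22 peaks, 21 of them higher, with 8210 irradiated and 2494 untreated reads. Its 1269-base peak at chr3:61168548-61169816 had 2900 irradiated and 872 untreated reads, a change of 1.72. In chr4:72000001-73000000 all 13 peaks were higher, with a median of 1.37, and 12 of them lay in 1 cluster. The peak chr4:72331382-72333576 in that cluster had 1329 irradiated and 151 untreated reads, a change of 3.01 and the largest of the bin. The bins before these 2 had medians of 0.17 and -0.07.

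A broader gain was seen in chr17:16000001-17000000, where 30 of 30 peaks were higher over a span of 794 kb, with a median of 1.30 and a lowest change of 0.09. Of its 6 stretches of 100 kb with at least 3 peaks, 5 had a median of at least 0.5, and the lowest was 0.26. The bins before and after it had medians of 0.45 and 0.43. In chr14:106000001-107000000, 41 of 44 peaks were higher (median 1.27), with 16103 irradiated and 6127 untreated reads. In chr1:156000001-157000000, 33 of 38 peaks were higher (median 1.25), with 32780 irradiated and 13811 untreated reads. In chr13:85000001-86000000 all 14 peaks were higher (median 1.21). In chr13:16000001-17000000, 53 of 58 peaks were higher (median 1.20) over 851 kb, but the lowest of its 7 stretches of 100 kb had a median of -0.06. Gains made up 58.6% to 90% of the peaks of these 8 bins and none of their peaks was a loss. The medians by which these bins were chosen lay above the size of a gain, so most of their peaks had to be gains.

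The bins with the lowest medians mostly held more peaks over longer spans. The lowest was chr7:85000001-86000000, with a median of -1.28 and 30 of 33 peaks lower. It had 4433 irradiated and 7553 untreated reads, a log2 ratio of -0.77 (exact 95% interval -0.82 to -0.72). The peak chr7:85740465-85742895 had 207 irradiated and 1220 untreated reads, a change of -2.47. In the same bin the peak chr7:85991031-85992211 had 1208 irradiated and 603 untreated reads, a change of 0.98, and the 3 peaks that were higher were the last 3 of the bin. The bin after it had a median of 0.22.

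In chr19:33000001-34000000, 42 of 45 peaks were lower (median -1.17), with 3299 irradiated and 8296 untreated reads. Its peak chr19:33084668-33086911 had 162 irradiated and 1011 untreated reads, a change of -2.53, while chr19:33048442-33049994 had 569 irradiated and 294 untreated reads, a change of 0.92. In chr14:117000001-118000000 all 10 peaks were lower, between -1.44 and -0.66, with a median of -1.15, 603 irradiated and 1564 untreated reads. This bin has the same number of peaks as the highest bin, but its peaks lay in 4 clusters over 595 kb.

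A widespread loss was seen in chr9:52000001-53000000, where 102 of 111 peaks were lower (median -1.14), 61 were losses and the changes ran from -3.36 to 1.02. Its peaks held 4325 irradiated and 13856 untreated reads, a log2 ratio of -1.68 (exact 95% interval -1.73 to -1.63). Each of its 8 stretches of 100 kb had a median at or below -0.5, between -1.70 and -0.57. The stretches hold the peaks by whose median the bin was chosen, so low values were favoured by the choice. The bins before and after it were at -0.21 and -0.13, closer to 0. In chr13:60000001-61000000, 91 of 100 peaks were lower (median -1.13), with 11869 irradiated and 26470 untreated reads. In chr14:23000001-24000000, 51 of 54 peaks were lower (median -1.10) and all 7 stretches were at or below -0.5. In chr12:111000001-112000000, 119 of 154 peaks were lower (median -1.09), but 1 of 10 stretches had a median of 0.69. In chr10:43000001-44000000, 68 of 81 peaks were lower (median -1.04). Losses made up 52.6% to 70% of the peaks of these 8 bins. The medians by which these bins were chosen lay beyond the size of a loss, so most of their peaks had to be losses. Gains numbered 7 in chr12:111000001-112000000, 2 in chr10:43000001-44000000 and 1 each in chr9:52000001-53000000 and chr13:60000001-61000000, and the other 4 bins had none.

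**Figure D3:**
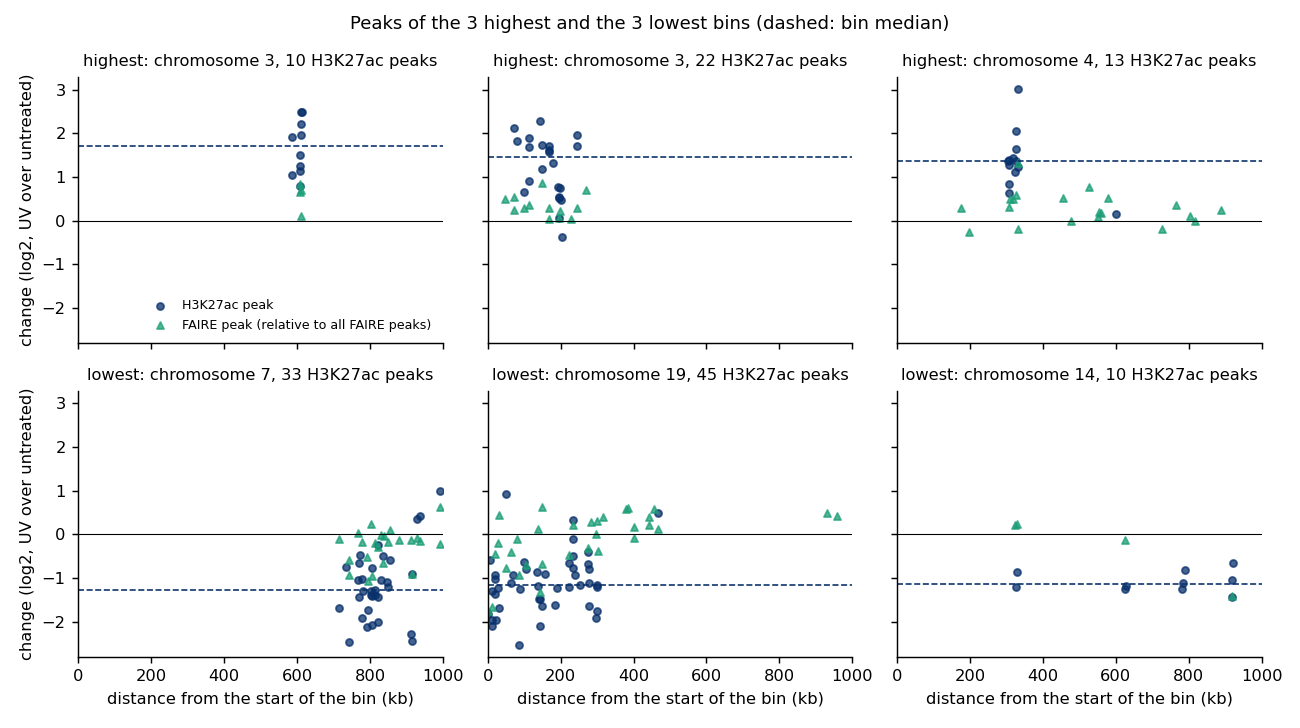
Change of each H3K27ac peak (circles) and each FAIRE peak (triangles, relative to all autosomal FAIRE peaks) against distance from the start of the bin in kb, for the 3 highest bins above and the 3 lowest bins below, with the bin median dashed. In the high bin on chromosome 4, 12 of the 13 H3K27ac peaks stand in 1 cluster, and in the low bin on chromosome 7 the changes run from -2.47 to 0.98, with the 3 positive ones at the end of the bin.

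The minimum of 10 peaks decided which small bins were members. The 30 bins with exactly 10 peaks had medians between -1.15 and 1.71, with a median of 0.30 over bins. The 28 bins with 9 peaks, just outside, had medians between -1.66 and 0.93, with a median of 0.08. The 1623 peaks of all bins with 1 to 9 peaks had a median change of 0.29, against 0.02 for the peaks of member bins. Their median reads were 40 in the irradiated pool and 27 in the untreated pool, against 49 in both pools for peaks of member bins.

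Among member bins, too, sparse ones had the higher medians. The median of bin medians was 0.15 in the quintile of bins with the fewest peaks (10 to 22) and -0.02 in the quintile with the most (79 to 180). Gains were 13.8% and losses 5.68% of the peaks in the sparsest quintile, and 11.0% and 12.3% in the densest. Over 1693 bins the median change correlated with the number of peaks at r = -0.20 (rho = -0.20) and with untreated reads per peak at r = -0.27 (rho = -0.38). The untreated reads enter both measures of that last pair. Input reads per kb of peak gave r = -0.0018 (rho = -0.12).

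FAIRE peaks in a bin moved with its H3K27ac peaks. Over 1673 bins with at least 5 FAIRE peaks, the median FAIRE change correlated with the median H3K27ac change at r = 0.55 (rho = 0.52). The 2 assays come from different samples but from the same treatment, and many of their peaks overlap. With the median change of peaks of similar read number removed from each peak, r was 0.59. With only FAIRE peaks that overlap no H3K27ac peak, r was 0.32 over 1379 bins. A FAIRE peak less than 2 kb from an H3K27ac peak had r = 0.51 with it, and r was 0.25 at 5 to 10 kb, 0.10 at 50 to 100 kb and 0.0096 at 500 to 1000 kb.

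The FAIRE difference between bins was small in size. Bins were ordered into 5 quintiles. In the quintile of bins with the lowest H3K27ac medians, the median FAIRE change was -0.10 relative to all FAIRE peaks. In the next quintiles it was -0.04, 0.00 and 0.03, and in the quintile with the highest H3K27ac medians it was 0.12. Of all autosomal FAIRE peaks 12.8% lay at least 0.5 below the median of all and 9.23% at least 0.5 above it. In the quintile of bins with the lowest H3K27ac medians these shares were 20.4% and 6.16%, and in the quintile with the highest they were 7.54% and 14.6%. Each step from 1 quintile to the next moved the FAIRE shares in the same direction as the H3K27ac medians.

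**Figure D4:**
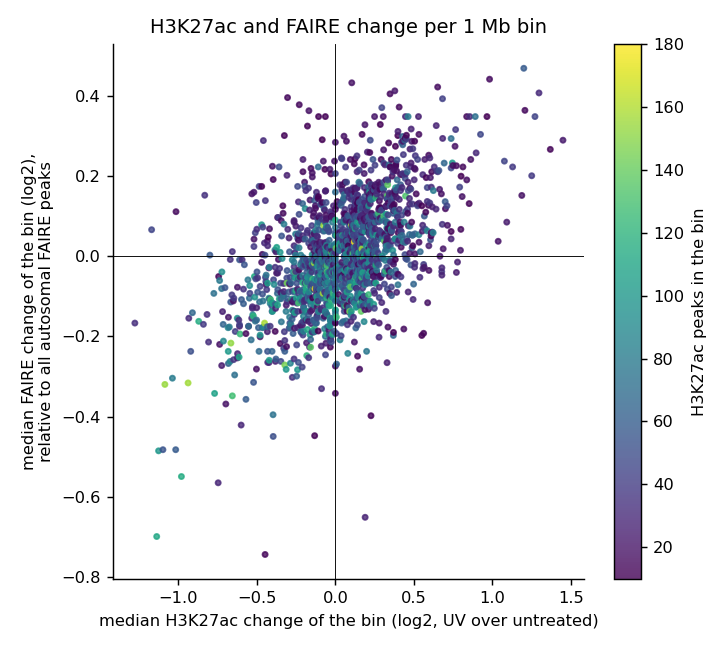
Each point is a bin with at least 5 FAIRE peaks (1673 bins), with its median H3K27ac change on the horizontal axis and its median FAIRE change relative to all autosomal FAIRE peaks on the vertical axis, both log2 of UV over untreated. Colour gives the number of H3K27ac peaks, and the cloud slopes upwards with r = 0.55.

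Among the 8 bins with the lowest medians the FAIRE median, relative to all FAIRE peaks, ranged from -0.70 to 0.07 in the 7 with at least 5 FAIRE peaks. In chr9:52000001-53000000 the 24 FAIRE peaks had a median of -0.70 relative to all FAIRE peaks, with 326 irradiated and 1328 untreated reads. In chr13:60000001-61000000 it was -0.48 over 43 FAIRE peaks and in chr14:23000001-24000000 -0.48 over 27. In chr19:33000001-34000000 the 32 FAIRE peaks had a median of 0.07, with 15 of them outside H3K27ac peaks and 7 at least 0.5 below the median of all FAIRE peaks. In sum they held 426 irradiated and 1011 untreated reads, not scaled for the lower total of the irradiated FAIRE pool. Single peaks there had as few as 9 reads. In the highest bins the FAIRE medians were 0.20 to 0.47 in the 7 with at least 5 FAIRE peaks. The highest bin had only 4 FAIRE peaks, with 105 irradiated and 88 untreated reads in all.

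H3K27ac peaks with and without an overlapping FAIRE peak had bin medians that moved together. Of the peaks of member bins 44.5% overlapped a FAIRE peak. In 1581 bins with at least 5 peaks of each kind, the medians of both kinds correlated at r = 0.62 (rho = 0.57). Peaks of both kinds can be close neighbours, as alternate peaks are, and this correlation does not separate them by distance. The median over these bins was 0.08 for peaks with FAIRE and 0.04 for those without.

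Genes and transcripts could be set beside the neighbourhoods only through the order of genes. The deposited promoter tables give reads in windows of 1000 bases by gene name without positions, so genes were not placed in the mm9 bins. Instead, 14340 tested autosomal genes were put into 1434 runs of 10 neighbours in the RefSeq order of GRCm38, a choice made after the files were seen. The median promoter H3K27ac change of a run ranged from -0.80 to 0.75, and 4.38% of the promoter variance lay between runs. For FAIRE the share was 4.34% and for RNA 6.34%. Next genes had promoter H3K27ac changes that correlated at r = 0.75 over 609 pairs with starts at most 1 kb apart, whose windows can share reads, and at r = 0.095 over the other 13794 pairs. RNA changes of next genes correlated at r = 0.098, and at 5 genes apart at r = 0.053.

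The RNA change of a run bore little relation to its change in promoter acetylation. The correlation over runs between the median H3K27ac change and the median RNA change was r = 0.0021 (rho = -0.037, 1434 runs). For a gene and its own promoter it was r = 0.090 over 14340 genes, and for a gene and the other 9 promoters of its run r = 0.0020. The edgeR quasi-likelihood test with Benjamini-Hochberg adjustment over 14925 genes called 7.7% of all tested genes higher and 12.4% lower in irradiated cells at 0.05. In the runs 1082 genes were called higher and 1815 lower. These counts rest on single libraries: without irradiated library 3 they were 554 and 1118, without irradiated library 1 1121 and 2776, without untreated library 2 1830 and 1149, and without untreated library 1 1699 and 1485. The share called higher was 7.94% in the quintile of runs with the lowest promoter medians and 8.61% in the quintile with the highest, and the share called lower was 14.1% and 14.0%. Of the 1434 runs, 487 held genes called in both directions.

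The run from Hist1h2af to Hist1h2bf, part of the large histone cluster on chromosome 13, was the 1 named run in which all promoters and all transcripts were lower. Replication-dependent histone genes supply nucleosomes for newly copied DNA and are read mainly in S phase. All 10 promoters of the run had less H3K27ac after irradiation, between -1.63 and -0.40, with a median of -0.77. Of all tested autosomal promoters 3.04% gained and 4.2% lost at least 1, and 4 of these 10 lost it. The FAIRE median of the run was -0.50 relative to the median of all promoters. All 10 genes were called lower in RNA (edgeR, adjusted p between 4.72e-08 and 0.00111). Many histone genes of the same class are near copies of each other, so reads may have been split among them, and the single values are uncertain.

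Hist1h3g, which encodes a histone H3, had 106 irradiated and 301 untreated H3K27ac reads at its promoter, printed above with its CCAAT matches. Its RNA was 1.67, 2.96 and 1.91 CPM in irradiated libraries, against 21.9, 18.9 and 18.7 CPM in untreated libraries. The groups did not overlap, and the log2 fold change was -3.19 ± 0.23 (SE, edgeR adjusted p = 8.42e-08). Hist1h1d, a linker histone H1 gene, had 119 irradiated and 222 untreated H3K27ac reads. Its RNA was 27.05, 29.8 and 25.6 CPM in irradiated libraries, against 209, 224 and 185 CPM in untreated libraries. Again every irradiated library was below every untreated one, with a log2 fold change of -2.90 ± 0.20 (SE, edgeR adjusted p = 4.72e-08).

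In each of the 5 runs with the highest medians between 0 and 3 of the 10 genes were called higher in RNA and between 0 and 5 lower. From Snapc2 to Arglu1 on chromosome 8, all 10 promoters had more H3K27ac, with a median of 0.67, while 5 genes were called lower in RNA and none higher. Efnb2, which encodes the ligand ephrin-B2, had 1224 irradiated and 390 untreated promoter reads. Its RNA was 45.2, 20.9 and 23.1 CPM in irradiated libraries, against 90.9, 60.7 and 46.0 CPM in untreated libraries, with a log2 fold change of -1.14 ± 0.28 (SE, edgeR adjusted p = 0.00613). The run from Rhod to Ccdc87 on chromosome 19 (median 0.61) was mixed, with 8 promoters higher and 2 lower, between -0.80 and 1.91, and 3 genes called higher and 2 lower in RNA. In it Rhod, a small GTPase gene, had 1907 irradiated and 495 untreated promoter reads. Its RNA was 9.96, 10.1 and 9.50 CPM in irradiated libraries, against 20.9, 25.4 and 21.2 CPM in untreated libraries (log2 fold change -1.19 ± 0.18 SE, edgeR adjusted p = 0.000105). In both genes promoter acetylation was higher and RNA lower. Efnb2, Rbm4, Hivep2, Txlnb, Tmem151a and Efna3 lie outside the rule for named genes and were chosen after their values were seen. The RNA calls among them were not recomputed under other settings. Rbm4, which encodes an RNA-binding protein in the same run as Rhod, had more promoter H3K27ac (770 irradiated and 296 untreated reads) and more RNA (log2 fold change 0.85 ± 0.19 SE, edgeR adjusted p = 0.00319).

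The run with the highest median, from Tnni3k to Lrrc7 on chromosome 3, had 8 of 10 promoters higher (median 0.75) and no gene called in RNA. Its Ankrd13c promoter had 1894 irradiated and 828 untreated reads, while its RNA was 31.5, 22.9 and 23.9 CPM in irradiated libraries and 37.6, 39.2 and 28.7 CPM in untreated libraries. These RNA values overlap between the groups (edgeR adjusted p = 0.127). The run from Dph3 to 3425401B19Rik on chromosome 14 had a median of 0.69, with 4 promoters gaining and 1 gene, Dph3, called higher (log2 fold change 0.59, edgeR adjusted p = 0.0313). That call was lost without irradiated library 1 or 3. The run from Pex3 to Heca on chromosome 10 had a median of 0.60 and held both the Hivep2 promoter at 1.97 and the Txlnb promoter at -1.39.

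Among the lowest runs, that from Cx3cl1 to Gpr97 on chromosome 8 had a median of -0.80 with 7 of 10 promoters lower. Its Ccdc102a RNA was 21.7, 13.9 and 14.3 CPM in irradiated libraries, against 60.8, 62.5 and 61.4 CPM in untreated libraries (log2 fold change -1.89 ± 0.20 SE, edgeR adjusted p = 3.63e-06), and its promoter change was -0.72. The run from Rin1 to Gal3st3 on chromosome 19 had a median of -0.75 but 3 genes called higher in RNA and none lower. One of them, Yif1a, had a promoter change of 1.26, and its RNA call was lost without irradiated library 3 (edgeR adjusted p = 0.0642). The others had less promoter H3K27ac and more RNA. Cnih2 had a promoter change of -1.32 (RNA log2 fold change 0.81, edgeR adjusted p = 0.00496). Tmem151a had a promoter change of -0.94 (RNA log2 fold change 1.53, edgeR adjusted p = 0.00187). The run from Kif24 to Ccl27a on chromosome 4 had a median of -0.74, with 1 gene called in each direction. In the run from Mtx1 to Efna4 on chromosome 3 (median -0.73), 9 of 10 promoters were lower, while 4 genes were called higher and 3 lower in RNA. The 3 lower genes, Efna1, Efna3 and Efna4, all encode ephrin-A ligands of Eph receptors, and Efna4 was at 1.67, 1.62 and 2.03 CPM in irradiated libraries, against 11.3, 11.6 and 14.0 CPM in untreated libraries (log2 fold change -2.79 ± 0.24 SE, edgeR adjusted p = 4.11e-07).

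At several known response genes the own promoter changed by more than the median of the promoters around it. A median over several promoters varies less than a single promoter, so this contrast alone does not set these genes apart. For 32 of 33 listed landmark genes (1 was not tested) the promoter was set beside those of up to 5 tested genes on either side. Own promoters gained at least 1 in 9 landmark genes and lost at least 1 in 3. The flank median was at least 0.5 for 1 of the 32, Egr1, and at most -0.5 for 1, Hist1h3g. The landmarks were chosen with earlier results of these data known, so the gains of their own promoters are a description. Many own promoters, among them those of Jun, Egr1, Myc, Col1a1 and Hist1h3g, lay within the range of their flanking promoters.

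Btg2 had 1369 irradiated and 362 untreated H3K27ac reads at its promoter, a change of 1.87, and the median of its 10 flanking promoters was -0.36. Only 1 of the 10 flanking promoters was higher, and 3 lost at least 1. Its RNA was 478, 264 and 354 CPM in irradiated libraries, against 36.6, 50.5 and 41.0 CPM in untreated libraries (log2 fold change 3.10 ± 0.25 SE, edgeR adjusted p = 2.45e-07), and none of the 10 flanking genes was called. Cdkn1a, which encodes the cell cycle inhibitor p21, had 810 irradiated and 245 untreated reads, a change of 1.66, with a flank median of -0.25. Its promoter also had 82 irradiated and 26 untreated FAIRE reads. Its RNA was 180, 55.4 and 91.9 CPM in irradiated libraries, against 29.9, 19.9 and 18.4 CPM in untreated libraries (edgeR adjusted p = 6.96e-05). Pmaip1, which encodes the p53-induced death factor NOXA, had 252 irradiated and 32 untreated reads, a change of 2.48, with a flank median of -0.19. Fosb, an AP-1 subunit gene, had 411 irradiated and 107 untreated reads, a change of 1.80, with a flank median of 0.08 and 2 of 10 flanking promoters gaining at least 1, up to 1.37. In each of these 4 the own promoter lay above the highest of its 10 flanking promoters.

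Fos, whose RNA was 138, 120 and 155 CPM in irradiated libraries, against 6.01, 6.92 and 7.31 CPM in untreated libraries, had a modest promoter change of 0.65, with 936 irradiated and 592 untreated reads. Its RNA log2 fold change was 4.35 ± 0.21 (SE, edgeR adjusted p = 1.17e-09), and its flank median was -0.03. Mdm2, the negative regulator of p53, had 1333 irradiated and 552 untreated promoter reads, a change of 1.25, while its RNA was 126, 65.3 and 75.1 CPM in irradiated libraries and 108, 80.6 and 69.1 CPM in untreated libraries (edgeR adjusted p = 0.967). These RNA values overlapped. Egr1, a zinc finger factor of the early response, changed by 0.79, its flank median was 0.52, and 9 of the 10 flanking promoters were higher, with none of their genes called in RNA.

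The Rtl1 and Cbx2 promoters, which lost acetylation, lay below the lowest of their flanking promoters. Rtl1, an imprinted gene derived from a retrotransposon, had 82 irradiated and 294 untreated H3K27ac reads, a change of -1.66. It had 6 irradiated and 71 untreated FAIRE reads, a FAIRE change of -1.55 relative to the median of all promoters. Its H3K27ac flank median was -0.22. Cbx2, a Polycomb subunit gene, had 103 irradiated and 293 untreated reads, a change of -1.38, with a flank median of -0.28 and 1 of 10 flanking promoters higher. Its RNA was 5.32, 5.39 and 4.69 CPM in irradiated libraries, against 30.9, 30.7 and 28.2 CPM in untreated libraries (log2 fold change -2.54 ± 0.18 SE, edgeR adjusted p = 7.49e-08). Hist1h3g lost 1.38, and its flank median of -0.53 was the lowest of the 32, with 7 of 10 flanking genes called lower in RNA.

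**Figure D5:**
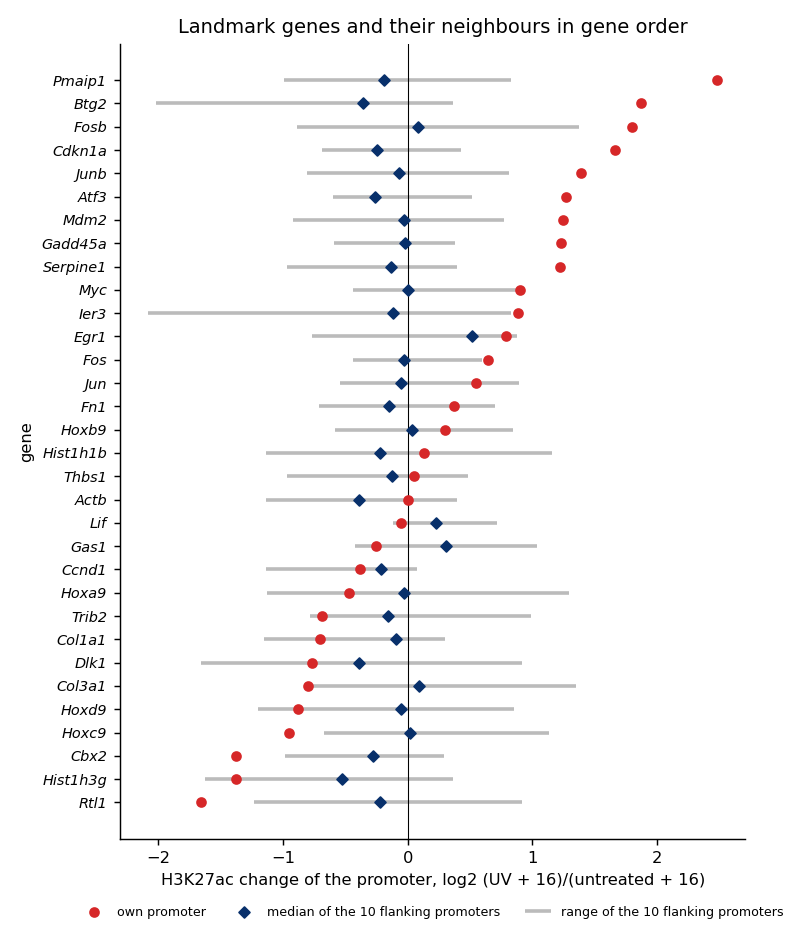
H3K27ac change of the promoter of 32 landmark genes (red), the median of up to 10 flanking promoters in gene order (blue diamonds) and their range (grey lines), on the log2 scale. Red points run from -1.66 to 2.48 and the blue diamonds from -0.53 to 0.52, but a median varies less than a single promoter. Many red points lie within their grey line.

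The gene lists are given by counts, to be read beside the shares over all genes given above. Of 29 immediate early and AP-1 genes, 15 promoters gained and none lost at least 1, with an own median of 1.05 and a flank median of -0.06, and 20 were called higher and 2 lower in RNA, or 1 lower without untreated library 2 or irradiated library 3. Of 28 p53 targets 16 gained and none lost, with an own median of 1.24 and a flank median of -0.08, and 10 were called higher and 3 lower in RNA. Without irradiated library 1 these were 7 and 7, and with library totals alone 8 and 8. Of 31 replication histone genes 2 gained and 5 lost, with an own median of -0.40 and a flank median of -0.20, and none was called higher and 29 lower in RNA. Many flanking genes of histones are histones too.

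Of 47 ribosomal protein genes none gained and 1 lost, with an own median of 0.22 and a flank median of -0.13, and 45 were called higher and none lower in RNA. Of 30 matrix and collagen genes tested, 29 could be placed. Of those, 2 gained and 2 lost, with an own median of -0.29 and a flank median of -0.11, and 4 of the 30 were called higher and none lower in RNA. The number called higher was 12 without untreated library 1 and 7 without untreated library 2, and 2 were called lower without irradiated library 1. Of 24 Hox genes, which set position along the body, 1 gained and 3 lost, with an own median of -0.39 and a flank median of 0.08, and none was called higher and 2 lower in RNA, or 1 lower without untreated library 2 or 3 or irradiated library 3. Over all tested autosomal promoters the median change was -0.05. In no list did the flanks reach a median of 0.5 in size.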

How the data were processed

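The deposited tables were the starting point, without the reads. The members, gene lists and tests were chosen with earlier results of these data known. The authors' build was mm9 and their tools included MACS2, DESeq2, TopHat and Bowtie 0.12.9, per the submitters' processing notes, which give no roles. RNA values are integer counts per gene that the authors deposited, with 14211528 to 22032701 counts per library. Chromatin values are, per the file headers, counts of reads per peak or promoter for each pooled condition and the input. Their deposited log2 enrichment uses the untreated input scale for both pools at peaks, so its difference equals the log2 ratio of reads plus 16 (largest gap 1.04e-14). Peaks have a score that the authors deposited and that was not used here. Peaks were called by the authors on all samples merged, per the file names. The columns marked DMSO were taken as irradiated because the labels' protocol gives DMSO medium to irradiated cells, and 8 further columns of values were not used.

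Bins, variance shares (one-way intraclass correlation), distances and correlations were computed in Python 3.11.15 with pandas 2.3.3 and scipy 1.17.1. A peak overlapped another when they shared a base. Intervals of read ratios are exact conditional binomial 95% intervals without scaling for depth. RNA counts were fitted in R 4.3.3 with edgeR 4.0.16 (filterByExpr, TMM, glmQLFit, quasi-likelihood F test, Benjamini-Hochberg, threshold 0.05). CPM uses TMM-scaled library sizes, and the SE is the size of the log2 fold change over the square root of F. Nothing says that libraries came from separate cultures, so p-values measure the spread between these samples. Of the tested genes 99.7% were matched to RefSeq. Named were the 8 highest and 8 lowest bins, the peaks of the 3 at either end with the most reads or the highest or lowest change among those with 100 reads or more, the 5 highest and 5 lowest runs with up to 3 genes each of at least 5 CPM by smallest p, and landmark genes. Placing RNA in bins, as first designed, was not possible without promoter positions. Both steps were tested on simulated data. The alternatives included DESeq2 1.42.0.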

Additional observations from a re-analysis of the deposited data

How the results depend on the processing

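No result changed direction for the 47 named genes that were recomputed under the alternatives run. None did for the named bins where a value was recomputed (86 values of 16 bins). The RNA calls of Efnb2, Rbm4, Tmem151a and Efna3 were not recomputed. Named bins were not recomputed with other bin sizes, shifted edges or other minimum numbers of peaks. With 1 peak per cluster the 3 highest bins, the lowest bin, chr1:156000001-157000000, chr13:85000001-86000000 and chr14:117000001-118000000 fell below 10 peaks and had no value. So did chr3:70000001-71000000, chr4:72000001-73000000 and chr14:117000001-118000000 for the upper 50% of peaks. The median of bin medians (0.0614) was 0.0907 with 1 read added, 0.0304 after centring, 0.0423 with at least 20 peaks, 0.0796 for the upper 50% of peaks by reads, 0.106 with 1 peak per cluster and 0.0934 with means. The share of variance between bins (13.0%) was 17.8% in bins of 0.5 Mb, 9.31% in bins of 2 Mb, 15.8% for the upper 50% of peaks and 9.36% with 1 peak per cluster. The SD within bins (0.76) was 1.11 with 1 read added, 0.73 in bins of 0.5 Mb, 0.77 in bins of 2 Mb, 0.75 with at least 5 peaks, 0.77 with at least 20, 0.87 for the upper 50% and 0.77 with 1 peak per cluster. The share of peaks on the side of their bin was 62.0% in bins of 0.5 Mb, 58.3% in bins of 2 Mb and 56.8% with 1 peak per cluster. In bins of 0.5 Mb the correlation of left with right parts was 0.25 and of next bins 0.17. The FAIRE correlation (0.55) was 0.58 with 1 read added, 0.51 in shifted bins, 0.59 with at least 20 peaks, 0.63 for the upper 50% and 0.68 with means. The FAIRE share between bins (4.94%) was 6.07% in bins of 0.5 Mb, 3.69% in bins of 2 Mb and 6.85% for the upper 50%. The causes were not tested.

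Leaving out each RNA library gave 554 to 1830 genes of the runs called higher and 1118 to 2776 called lower, and a correlation of runs between -0.069 and 0.064. With library totals alone 3633 were called lower and 849 higher, and the median over all genes moved to -0.24. Without the filter on low counts the numbers were 747 and 1480, and with DESeq2 1298 and 1775. Of the 47 named and called genes that were recomputed, 7 lost the call in some setting (Ciapin1, Dok4, Dph3, Heca, Arglu1, Dlk1 and Yif1a). The replicate numbers did not pair the samples (correlations of same-numbered deviations 0.15, -0.58 and 0.50), and with the replicate block 1208 were called higher and 2019 lower. Peaks without a promoter window and RNA genes in bins were not run, since promoter positions were not used here. Depth limits FAIRE most, with 31.7% of its variance within bins from counting.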

Other observations

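Chromosomes differed little in how their megabase bins changed. The median of bin medians was highest on chromosome 1 at 0.14 (127 bins), closely followed by chromosome 8 at 0.14 and chromosome 10 at 0.13, and lowest on chromosome 6 at -0.06 (98 bins). It was 0 on chromosomes 7 and 11. The SD of bin medians was 0.41 on chromosome 14 and 0.40 on chromosome 13, and 0.28 on chromosomes 11 and 15. Chromosomes 13 and 14 together hold 6 of the 16 named bins.

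Of 16 genes whose products write, erase or read H3K27 acetylation, 2 were called higher and 1 lower in RNA by edgeR, and no promoter gained or lost at least 1. Over all tested genes 7.7% were called higher and 12.4% lower, and 3.04% of autosomal promoters gained and 4.2% lost at least 1. On 16 genes such shares give few calls, so these counts do not mark the list out. Leaving out 1 library at a time gave 1 to 4 called higher (4 without untreated library 2, 1 without irradiated library 3) and none or 1 called lower (none without untreated library 1 or 2 or irradiated library 2 or 3), and with library totals alone 4 were called lower. The median change of their promoters was -0.06, and that of their flanking promoters was -0.14.

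At least 5 of 10 neighbouring genes were called lower in RNA in 26 of 1434 runs, and at least 5 were called higher in 5 runs. Over all tested genes 12.4% were called lower and 7.7% higher, which favours the first count. In 3 runs all 10 promoters had more H3K27ac after irradiation, and in 9 all 10 had less. The median change over all tested autosomal promoters was -0.05, which favours runs with less.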
